A study of Mus musculus with 30 samples.

Results

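Day-5 embryoid bodies (EB) and undifferentiated embryonic stem cells (ESC) were compared in the first of 4 RNA pools taken from a sucrose gradient. The comparison used 6 of the 30 arrays of the series: the 3 pool 1 arrays of EB cultures and the 3 pool 1 arrays of ESC cultures, paired by their biological replicate number. All cells were of the mouse line R1, with no genetic change named in the labels. EB are cell aggregates that had grown without leukaemia inhibitory factor (LIF), whereas ESC were kept undifferentiated with LIF. Cultures of both states received 150 ug/ml cycloheximide, which stops ribosomes on mRNA, for 15 min before harvest. Cytoplasmic lysate was spun through sucrose, fractions were combined into pools, and 2.5 ug of RNA per array was labelled for Affymetrix mouse expression arrays. All 45037 non-control probe sets of the 6 arrays formed the starting set. R1 is 1 cell line, and an EB culture holds a mixture of cells.

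In a polysome gradient, an RNA sediments according to the ribosomes and proteins bound to it: free particles and single ribosomes stay near the top, and mRNAs carrying many ribosomes move toward the bottom. The labels do not say from which end pool 1 was taken, so it is named by its number only. LIF holds mouse ESC in the naive state through its receptor, the kinase JAK1 and the transcription factor STAT3, and its removal lets cells leave that state. Since each array had the same mass of RNA, a level is a gene's share of the RNA in the pool; fewer cells with an mRNA and less mRNA per cell cannot be told apart.

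Levels are log2(signal + 32) after quantile normalisation of the 6 arrays, and a difference is EB minus ESC on that scale, so that 1 is a 2-fold change of signal + 32. On the deposited scale, mean linear signal was 153.9, 96.1 and 128.2 on EB arrays, against 225.9, 72.4 and 81.3 on ESC arrays. The ESC replicate 1 array was the brightest, and the states overlapped. Pearson's r across probe sets was 0.968 to 0.979 among EB arrays, 0.977 to 0.981 among ESC arrays and 0.937 to 0.955 between the states. The signal of a control gene's 3′ probe set minus that of its 5′ probe set, which grows as RNA is degraded or copied incompletely, was lower in EB. For Gapdh it was 0.49, 1.03 and 1.38 in EB, against 2.19, 1.98 and 2.18 in ESC (log2). For Actb it was 1.82, 2.98 and 2.84 in EB, against 4.09, 3.87 and 4.22 in ESC. Neither overlapped, each with an exact two-sided permutation p of 0.1, the smallest that 3 arrays against 3 allow. The same measure on a spike-in RNA, dap, averaged 0.68 ± 0.0819 in EB and 0.637 ± 0.125 in ESC (SD, n = 3 each; exact permutation p = 0.7). These RNA quality controls moved with the state, and their part in the results was not tested.

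**Figure D1:**
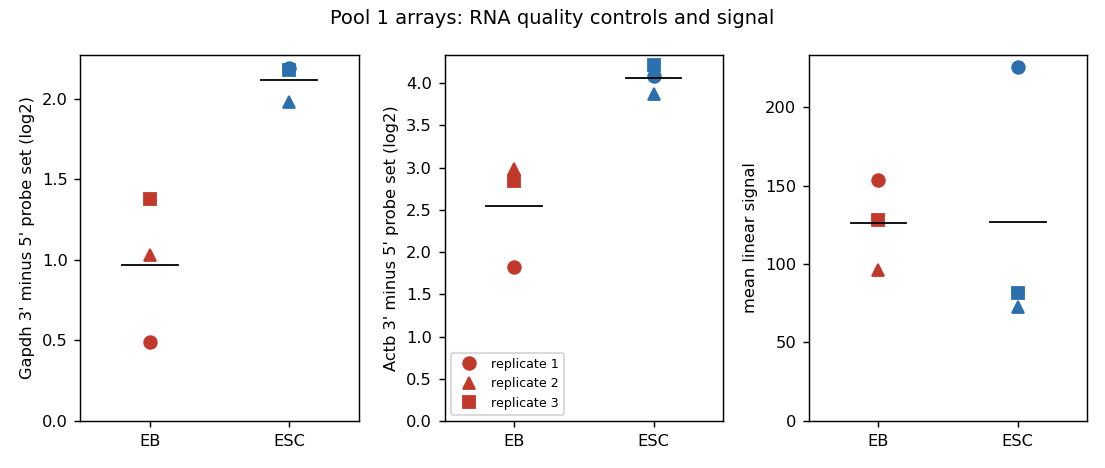
RNA quality controls and mean signal on the pool 1 arrays. The first and second panels plot the 3′ minus 5′ probe set difference (log2) of Gapdh and Actb and the third the mean linear signal, with EB left of ESC, 1 point per array (shape = replicate number) and a bar for the mean; Gapdh and Actb values do not overlap between the states, and mean signals do.

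Markers of undifferentiated ESC were present in both states: all 9 of 9 lay above the detection floor on all 3 EB arrays and on all 3 ESC arrays. Their summed linear signal on the deposited scale ranged from 12265 to 19175 in EB and from 14116 to 43836 in ESC. Of 7 markers of feeder fibroblasts, Thy1 alone was above the floor on all 6 arrays, and the list summed to between 109 and 161 in EB and between 98.3 and 218 in ESC. Of 10 markers of the outer endoderm of embryoid bodies, 4 were above the floor on all EB arrays and 2 on all ESC arrays, and the list summed to between 193 and 323 in EB and between 117 and 321 in ESC. None of the tested markers of feeders (5 tested), outer endoderm (6), early mesoderm (4), blood (1) or neural cells (4) passed the test. The other listed markers of these types were not tested. Primed epiblast markers, which mark the cell state that follows the naive one, were above the floor on all arrays in 5 of 5 cases and 2 of the 5 were higher in EB.

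Relative to all RNA of the pool, genes were called in both directions. Quantile normalisation gives all arrays 1 distribution, so the balance of the directions depends on it. Of 13236 genes tested with 1 probe set each, 1009 were higher in EB (7.62% of those tested) and 1190 were lower (8.99%) by limma with the replicate number as a block, at a Benjamini-Hochberg adjusted p under 0.05. Counted by probe set, 2002 of 27022 were higher (7.41%) and 1918 lower (7.1%). A difference of at least 1 on the log2 scale was reached by 131 of the higher and 145 of the lower genes. The 3 EB and the 3 ESC values did not overlap for 954 of the 1009 and 1140 of the 1190; of all genes tested, 14.2% lay apart with EB higher and 16.5% with EB lower. Higher probe sets made up 51.1% of the calls, but 35.7% when arrays were centred on their median instead and 62.2% without further normalisation. With replicate pair 1 or pair 3 left out, no probe set was called by limma, while 4823 and 4972 had an unadjusted p under 0.05, against 6959 with all 3 pairs.

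On the deposited scale, which the authors had set by spike-in RNA, 1150 probe sets were higher in EB (4.26%) and 700 lower (2.59%) in the blocked fit. By gene, 524 were higher in EB (3.96%) and 487 lower (3.68%). Of these, 518 and 487 were also called relative to all RNA. These calls need the pairing: without the replicate block no probe set was called by limma, and 1022 had an unadjusted p under 0.05. The blocked fit gave probe sets nearly equal standard errors, from 0.229 to 0.250, so those p-values hardly use a gene's own spread. The values below are relative ones. The relative fit also draws on a spread shared by all probe sets. Its standard errors had a median of 0.153, close to the minimum of 0.147, and a maximum of 0.305. For many probe sets its p-values therefore hold little of a gene's own spread.

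**Figure D2:**
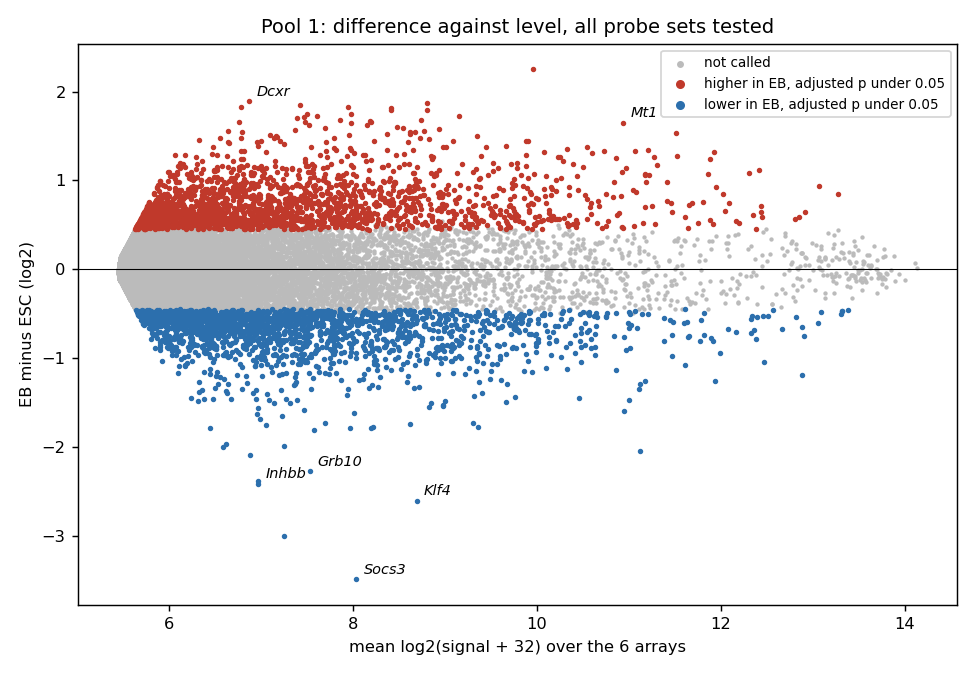
EB minus ESC difference (log2, vertical axis) against mean log2(signal + 32) over the 6 arrays (horizontal axis) for the 27022 probe sets tested in pool 1. Red points are the 2002 called higher in EB, blue points the 1918 called lower and grey points the rest; Socs3 and Klf4 lie lowest among the labelled genes, and Dcxr and Mt1 are labelled on the higher side.

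The largest negative difference was that of Socs3, the feedback inhibitor that STAT3 induces downstream of LIF. It stood at 6.38, 6.17 and 6.32 in EB, against 9.62, 9.84 and 9.87 in ESC, so every EB array was far below every ESC array. The difference was -3.49 (SE 0.153, adjusted p = 1.86e-10), and all 3 of its probe sets were called lower. Its promoter is printed because the gene leads the comparison and carries a letter pattern of the STAT family. The sequence is RefSeq's for build GRCm38.p6, chr11:117969317-117969616 on the minus strand, around the gene's start. Capitals mark the 1 match to TTCNNNGAA, searched on both strands, which begins 154 bases before the start.
Socs3 promoter: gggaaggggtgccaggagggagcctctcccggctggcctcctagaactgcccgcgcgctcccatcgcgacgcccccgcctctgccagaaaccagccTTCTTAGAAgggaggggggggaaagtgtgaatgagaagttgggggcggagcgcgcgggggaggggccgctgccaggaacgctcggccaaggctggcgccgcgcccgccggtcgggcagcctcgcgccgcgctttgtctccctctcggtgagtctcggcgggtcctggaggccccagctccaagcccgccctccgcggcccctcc
The pattern was found in 2726 of 32851 RefSeq promoters of this length (8.30%). Among LIF receptor and STAT3 target genes it was found in 1 of 11 with a promoter entry, and that gene was Socs3; a match is a description, not a binding site.

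Of 12 LIF receptor and STAT3 target genes tested, 8 were lower in EB and none higher, with a median difference of -0.70, beside -0.01 over all genes. Pim3, a kinase gene, stood at 8.30, 8.16 and 8.30 in EB, against 9.91, 9.57 and 9.73 in ESC. Of the 3 Pim3 probe sets 1 was called, and the weakest difference was -0.03. Bcl3, which encodes a nuclear cofactor of NF-kappaB, stood at 5.93, 5.71 and 6.2 in EB, against 7.47, 7.23 and 7.52 in ESC. Pim3 and Bcl3 were lower without overlap, by -1.48 (SE 0.149, adjusted p = 3.29e-06) and -1.46 (SE 0.149, adjusted p = 4.05e-06). The other called members were Junb (-0.96), Lifr, which encodes the LIF receptor (-0.77), Stat3 itself (-0.70), Myc (-0.69) and Pim1 (-0.53). Il6st, which encodes the co-receptor gp130, had a difference of -0.18 and Jak1 of 0.09, and neither passed the test.

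Among 30 pluripotency factors, 13 were lower in EB and 6 higher, with a median of -0.43. Klf4, a transcription factor of the naive state, stood at 7.5, 7.29 and 7.38 in EB, against 10, 10.12 and 9.86 in ESC. Its difference was -2.60 (SE 0.152, adjusted p = 8.81e-09), and both of its probe sets were called lower. Gbx2, a homeobox gene that STAT3 can induce, stood at 5.41, 5.82 and 5.41 in EB, at or close to the floor, against 7.45, 7.25 and 7.31 in ESC, a difference of -1.79. Tbx3 (-1.46), Klf5 (-1.31), Tdgf1 (-1.26), L1td1 and Trim71 (each -1.06), Esrrb (-0.97), Zfp42 (-0.91), Tcl1 (-0.87), Sox2 (-0.80), Fgf4 (-0.75) and Nr5a2 (-0.72) were the other lower members. The core factor Pou5f1 stood at 10.35, 10.26 and 10.26 in EB, against 10.07, 10.06 and 10.11 in ESC, and its difference of 0.21 did not pass. Nanog stood at 10, 10.14 and 10.04 in EB, against 10.47, 10.55 and 10.43 in ESC, and its difference of -0.43 also did not pass (adjusted p = 0.0617).

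The 6 higher pluripotency members were led by Dppa3, a maternal factor that protects DNA methylation in the early embryo. Dppa3 stood at 9.17, 9.04 and 9.19 in EB, against 7.5, 7.79 and 7.53 in ESC, a difference of 1.53 (SE 0.154, adjusted p = 3.55e-06). Lefty1, a secreted inhibitor of Nodal signalling, stood at 9.11, 8.13 and 8.21 in EB, against 7.07, 7.13 and 7.23 in ESC. Its difference was 1.34, and EB replicate 1 was the highest of the 6 arrays. Utf1 (0.84), Prdm14 (0.71), Lefty2 (0.59) and Zfp296 (0.51) completed the group.

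Genes of cell types that arise later were counted beside the 7.62% of all genes called higher and the 8.99% called lower. Of 11 primed epiblast genes, 2 were higher and 1 was lower in EB. Otx2, a homeobox factor of the post-implantation epiblast, stood at 9.69, 9.57 and 9.75 in EB, against 8.27, 8.31 and 8.29 in ESC, a difference of 1.38 (SE 0.148, adjusted p = 6.60e-06). Lef1, a nuclear partner of beta-catenin, was higher by 1.06 (SE 0.174), and Sox4 was lower (-0.76). The other Lef1 probe set, not called, gave 0.19. Of 6 Sox4 probe sets 1 was called, and another gave 0.36. No gene of 12 for primitive streak and mesoderm passed the test, and the largest difference there was 0.49 for Mesp1 (adjusted p = 0.0655), a regulator of the first heart progenitors. None of 10 neural genes passed, with Hes5 at 0.48 and Tubb3 at 0.45. Of 13 heart and blood genes, Gata2 alone was called (-0.57), and of 18 endoderm genes the matrix genes Sparc (-0.72) and Lamc1 (-0.71) were lower in EB. Of 3 Sparc probe sets 1 was called, with -0.06 as the weakest, and the other of Lamc1, not called, gave 0.19. The added 32 shrinks the differences of genes near the floor.

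Of 12 germ cell genes, 6 were called higher in EB and none lower, with a median of 0.46. The 6 became 2 with quantile normalisation over 24 pool arrays or an offset of 8. Mael, whose product works in the piRNA pathway, stood at 7.82, 7.98 and 7.94 in EB, against 6.40, 6.36 and 6.48 in ESC, a difference of 1.5 (SE 0.148, adjusted p = 2.94e-06). Dazl, an RNA-binding regulator of translation in germ cells, stood at 8.14, 8.43 and 8.16 in EB, against 7.26, 7.04 and 7.01 in ESC, a difference of 1.14. Sycp3, a component of the synaptonemal complex, was higher by 0.84, and Stra8 and Tdrd12 (each 0.51) and Prdm1 (0.46) were also called.

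The 12 genes with the largest positive difference were Dcxr, Ccn2, Cdk12, Anxa2, Ndrg1, Sin3b, Id3, Tbrg1, Mt1, Use1, Mrpl23 and AW549877. Dcxr, a reductase of the xylulose pathway, stood at 7.94, 7.69 and 7.83 in EB, against 5.85, 5.92 and 6.01 in ESC, a difference of 1.89 (SE 0.151, adjusted p = 4.03e-07). Ccn2, a matrix-associated growth factor, stood at 8.83, 8.82 and 8.93 in EB, against 7.36, 7.01 and 6.74 in ESC, a difference of 1.82 (SE 0.162). Its relative Ccn1 was higher by 0.52. Mt1, which encodes a zinc-binding metallothionein, stood at 11.68, 11.84 and 11.78 in EB, against 9.83, 10.17 and 10.34 in ESC, and its other probe set, not called, gave 0.13. Anxa2 (1.75), a calcium-dependent membrane-binding protein, and Tbrg1 (1.66) also lay apart in the 2 states. Id3, an inhibitor of helix-loop-helix factors and a target of BMP signals, stood at 8.82, 8.62 and 8.64 in EB, against 7.03, 7.03 and 7.0 in ESC. Sin3b (1.68), a scaffold of histone deacetylase complexes, and Cdk12 (1.82), a kinase that acts on RNA polymerase II, were measured by several probe sets that disagreed, with differences from -0.13 to 1.68 for Sin3b and from -0.25 to 1.82 for Cdk12.

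**Figure D3:**
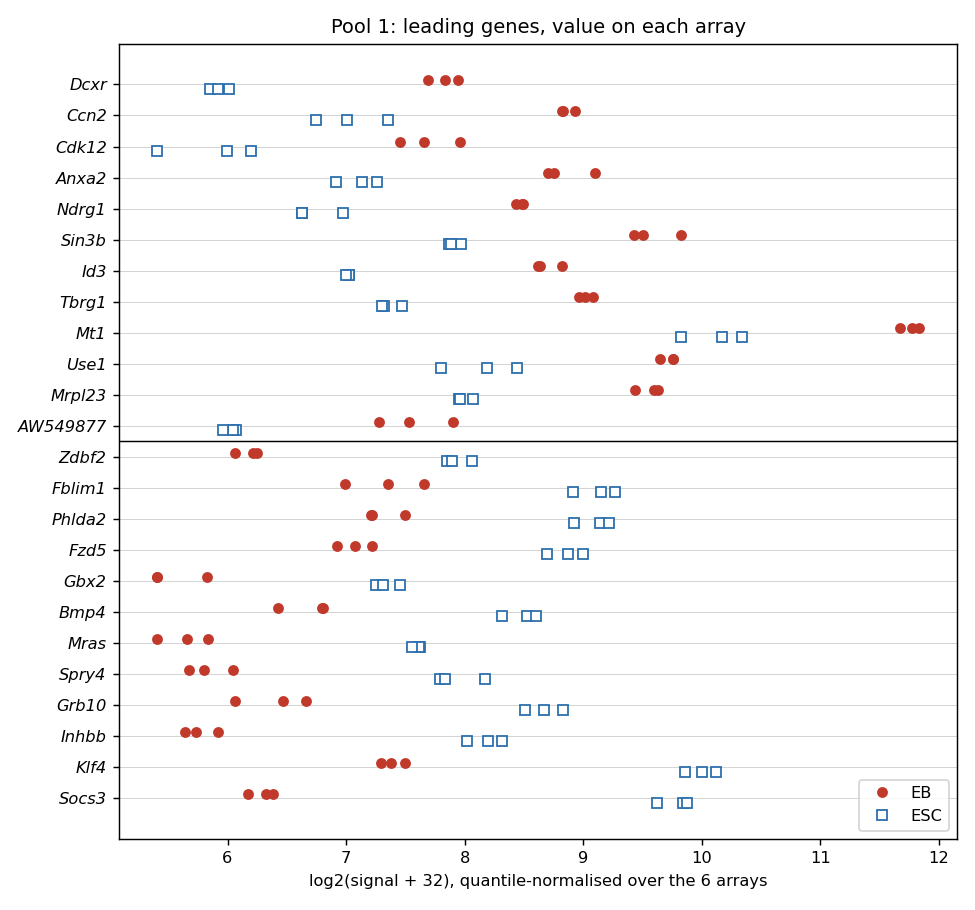
Level on each pool 1 array, as log2(signal + 32) after quantile normalisation, for the 12 genes with the largest positive (above the line) and the 12 with the largest negative EB minus ESC difference. Filled circles are the 3 EB arrays and open squares the 3 ESC arrays; the states do not overlap for any of the 24 genes, which were chosen with that as a condition.

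Several of the lowest genes act in signalling. Inhbb, which encodes the beta B subunit of activins, stood at 5.73, 5.64 and 5.92 in EB, against 8.20, 8.02 and 8.31 in ESC, a difference of -2.41 (SE 0.147, adjusted p = 1.49e-08), and its other probe set, not called, gave -0.30. Spry4, an inhibitor of FGF signalling to ERK, stood at 5.80, 6.05 and 5.67 in EB, against 7.79, 8.17 and 7.83 in ESC, a difference of -2.09. Bmp4, a ligand of the BMP pathway, stood at 6.80, 6.42 and 6.79 in EB, against 8.32, 8.53 and 8.60 in ESC, a difference of -1.81. All EB values of these genes lay more than 1 log2 unit below the lowest ESC value. Of the 34 signalling ligands and receptors tested, 8 were lower in EB and Id3 alone was higher, with a median of -0.17. Spry2 (-1.73), the growth factor Igf2 (-1.11), Fgfr1 (-0.71), the Hedgehog receptor Ptch1 (-0.65) and Id2 (-0.61) were the other lower members; another probe set of Ptch1 was called higher (0.88).

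Outside that list, the lowest genes included Grb10, an imprinted adaptor of the insulin receptor, at 6.07, 6.66 and 6.47 in EB, against 8.83, 8.51 and 8.67 in ESC. Its difference was -2.27 (SE 0.172, adjusted p = 2.60e-07), but of its 3 probe sets 1 was called, and the weakest difference was -0.04. Mras, a Ras-family GTPase (-1.96), Fzd5, a Wnt receptor (-1.78), Fblim1, a protein of cell-matrix junctions (-1.78), and the imprinted genes Phlda2 (-1.78) and Zdbf2 (-1.76) made up the rest of the 12 lowest. Vim, the gene of an intermediate filament protein, was lower by -1.73, at 6.59, 7.44 and 6.46 in EB, against 8.78, 8.5 and 8.42 in ESC, with all 3 probe sets called.

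In 22 called genes, every array of 1 state lay at the floor, 16 with EB higher and 6 with EB lower. Fibp was at the floor on all ESC arrays and at least 5.07-fold higher in EB, and Aff3 at least 3.97-fold higher. Their other probe sets, not called, gave 0.13 and 0.33. Eya1 was at the floor on all EB arrays and at least 4.77-fold lower in EB, and Rttn at least 3.96-fold lower, although the other probe set of Rttn, not called, gave 0.23. These bounds compare mean deposited signal with the floor.

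The next lists cover the translation apparatus. Of 42 cytosolic ribosomal protein genes, 8 were higher in EB and 1 was lower, a median of 0.11 with 30 of 42 above 0. Rpl37 stood at 9.85, 10.55 and 10.32 in EB, against 8.71, 9.68 and 9.48 in ESC, a difference of 0.95. Rpl10a, at 13.55, 13.69 and 13.37 in EB, against 12.72, 12.57 and 12.52 in ESC, differed by 0.93. Rps27 differed by 0.96, but its EB values of 6.49, 8.11 and 7.19 overlapped its ESC values of 6.87, 6.14 and 5.92. The median of the list was 0.45 on the deposited scale, beside 0.04 for all genes. The 2 sets were not matched for signal level. ND5, a bright probe set outside the list, went from -0.16 on the relative to 0.15 on the deposited scale. The 8 higher members became 1 with quantile normalisation over 24 pool arrays and 2 with an offset of 8. Of 78 listed genes, 43 had a probe set of 1 symbol and 42 were tested. Ribosomal protein mRNAs have many pseudogene copies, so probe sets may not tell members apart.

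Translation initiation factors had 5 higher and 2 lower members of 23, beside 7.62% and 8.99% of all genes, with a median of 0.28. The higher ones were mostly subunits of eIF3, the complex that loads the small ribosomal subunit onto mRNA. Eif3m stood at 9.60, 9.37 and 9.49 in EB, against 8.18, 8.33 and 8.22 in ESC, a difference of 1.25 (SE 0.151), although the other probe set of the gene gave -0.19. Eif3l (0.88), Eif3i (0.84) and Eif3d (0.47) were also higher, as was Eif2b3 (0.51), whereas Eif5b (-0.75) and Eif1a (-0.53) were lower. Of 3 Eif3l probe sets 1 was called, and another gave -0.06. The 5 higher members became 3 on the deposited scale. They became 1 with quantile normalisation over 24 pool arrays or an offset of 8. In the list of other TOP mRNAs, transcripts whose translation follows mTOR through a pyrimidine tract, Eif3f (1.07), Eif3h (0.90) and Eef2 (0.87) were higher and Vim and Ipo7 (-0.61) lower of 19; 2 other probe sets of Ipo7 were called higher (0.88 and 1.10). Of 16 mTOR pathway genes 2 were higher and 2 lower, beside 7.62% and 8.99% of all genes. The higher ones were Ddit4 (0.66) and Deptor (0.61), both inhibitors of mTOR, and Mtor itself (-0.78) was among the lower. Of 5 Deptor probe sets 1 was called, and another gave -0.06. The other Mtor probe set, not called, gave 0.07. The 2 higher members became 0 on the deposited scale, with quantile normalisation over 24 pool arrays or with an offset of 8. The 2 lower ones became 1, 0 and 1.

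Of 19 tRNA synthetase genes, 7 were lower in EB and 2 higher, with a median of -0.33. Nars stood at 8.44, 8.80 and 8.64 in EB, against 10.05, 9.71 and 9.65 in ESC, a difference of -1.17 (SE 0.164, adjusted p = 8.95e-05). Iars (-1.05), Tars (-0.98), Eprs (-0.86), Wars (-0.65), Aars (-0.60) and Gars (-0.49) were lower, whereas Qars (0.98) and Kars (0.85) were higher. In total RNA of the same replicate numbers the list had a median of -0.54. Among 19 stress-response mRNAs with upstream open reading frames, 4 were higher and 5 lower: Ddit3, a transcription factor of the unfolded protein response, was higher by 1.14, and Atf5 (-1.05) and Ppp1r15b (-0.97) were lower.

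Of 75 mitochondrial ribosomal protein genes, 24 were higher in EB and 5 lower, beside 7.62% and 8.99% of all genes tested. The median was 0.27, and 57 of 75 differences were above 0. Mrpl23 stood at 9.60, 9.43 and 9.63 in EB, against 8.07, 7.95 and 7.96 in ESC, a difference of 1.56 (SE 0.148, adjusted p = 2.04e-06). Mrps24, at 10.05, 10.41 and 10.46 in EB, against 9.19, 8.96 and 9.22 in ESC, differed by 1.18, and Mrps34 by 1.16. The largest lower difference was that of Mrpl3 (-0.69). When arrays were centred on their median, 12 were higher and 9 lower. The 24 higher ones became 4 with quantile normalisation over 24 pool arrays and 6 with an offset of 8.

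Nuclear genes of the respiratory chain gave 19 higher and 8 lower members of 69, beside 7.62% and 8.99% of all genes. Their median was 0.03. The 19 higher ones became 2 with quantile normalisation over 24 pool arrays, 3 with an offset of 8 and 5 on the deposited scale. The 8 lower ones became 2, 3 and 3. Atp5g2, a subunit of the proton-conducting ring of ATP synthase, stood at 11.03, 10.87 and 11.12 in EB, against 9.52, 9.59 and 9.85 in ESC, a difference of 1.35, while its other probe set, not called, gave -0.01. Ndufs3 (1.18), of complex I, was higher, and Cox6b1, of complex IV, was lower at 10.86, 11.16 and 11.18 in EB, against 12.22, 12.12 and 12.10 in ESC. The sign of the median turned under median centring, to -0.16, with 5 higher and 11 lower. The median of all genes moved from -0.01 to -0.10 under that setting. Of the mitochondrially encoded RNAs, ND5 alone was named by the array's annotation; it stood at 13.52, 13.81 and 13.69 in EB, against 13.74, 13.95 and 13.82 in ESC, and did not pass the test.

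Proteasome subunits were higher in 11 of 31 cases and lower in 1, with a median of 0.26. Psmb6, a catalytic subunit, stood at 10.84, 10.64 and 10.96 in EB, against 9.86, 9.88 and 9.94 in ESC, a difference of 0.92, and Psmb7 (0.90) and Psmd4 (0.84) were also higher. The 11 higher members became 0 with quantile normalisation over all 24 pool arrays and 1 with an offset of 8. They became 5 with median centring, where the median was 0.09 beside -0.10 for all genes, and 6 on the deposited scale. Over all probe sets, the 2002 higher ones became 663 and 817 with the first 2 of these settings. Calls fell in other lists too. Glycolysis genes had 6 higher and 3 lower members of 17: Aldoa, at 11.98, 11.83 and 11.92 in EB, against 10.61, 10.61 and 10.72 in ESC, was higher by 1.26, Ldhb by 1.06, and Hk2, the first enzyme of the pathway, was lower (-1.52). Hypoxia-inducible genes had 6 higher and none lower of 16, a median of 0.37, with Ndrg1 at 8.43, 8.49 and 8.48 in EB, against 6.63, 6.63 and 6.97 in ESC. Bnip3 (0.90), a mitophagy receptor, Ero1a (0.80), Adm (0.75), Ddit4 (0.66) and Pdk1 (0.60) were the other members called. Of 3 Ero1a probe sets 1 was called, and another gave -0.16.

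Of 30 chromatin regulators 8 were lower in EB and none higher, with a median of -0.24. They were Tet2, which oxidises methylcytosine (-1.03), Arid1a (-0.94), Uhrf1 (-0.70), Jarid2 (-0.67), the maintenance methyltransferase gene Dnmt1 (-0.65), Chd4 (-0.58), Trim28 (-0.56) and Rnf2 (-0.53). The other probe set of Tet2, not called, gave 0.54, and that of Uhrf1, not called, gave -0.04. The 8 became 2 with quantile normalisation over 24 arrays or an offset of 8, and 4 on the deposited scale. Of 24 splicing factors and hnRNPs 9 were lower and none higher, with a median of -0.33. Sf3b1 stood at 8.04, 8.93 and 8.85 in EB, against 9.47, 9.64 and 9.47 in ESC, Hnrnpd differed by -0.87 and Srsf2 by -0.75. Of 4 Srsf2 probe sets 1 was called, and another gave 0.28. The other Hnrnpd probe set, not called, gave -0.04. The 9 lower splicing genes became 0 with quantile normalisation over 24 arrays or an offset of 8, and 4 on the deposited scale. Over all probe sets, the 1918 lower ones became 488 and 664 with those first 2 settings. Chromatin regulators had medians of -0.52, -0.36 and 0.14 in pools 2 to 4, and splicing factors of -0.12, 0.07 and 0.15. In total RNA the 2 lists had medians of 0.09 and 0.07, and no member of either was called there, where 0.287% of all genes were called higher and 0.363% lower. Genes with very long coding sequences had 10 lower and none higher members of 29, beside 8.99% and 7.62% of all genes. Their median was -0.37, led by Ahnak (-1.45), Fasn (-1.17) and Macf1 (-1.01). The list was also low elsewhere, with medians of -0.81, -1.06 and -0.89 in pools 2 to 4 and -0.36 in total RNA. The 10 became 4 with quantile normalisation over 24 arrays and 5 with an offset of 8.

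Cell cycle genes were split. Counts in this paragraph stand beside 7.62% of all genes called higher and 8.99% called lower. Of 23 MCM and replication genes 4 were higher and 4 lower: Mcm7, part of the replicative helicase, stood at 11.62, 11.43 and 11.42 in EB, against 10.31, 10.20 and 10.20 in ESC, while the polymerase gene Pola1 was lower (-0.85). Of 22 mitosis genes 8 were higher, Ccnb2 (0.83) and Cdc20 (0.75) foremost, and the motor gene Kif11 (-1.08), Cenpf (-0.88) and Cenpe (-0.45) were lower. Of 3 Cenpf probe sets 1 was called, and another gave 0.35. Of 19 chaperone genes 4 were higher and 4 lower. The mitochondrial chaperonin gene Hspd1 stood at 10.46, 10.08 and 10.28 in EB, against 11.52, 11.85 and 11.85 in ESC. Hsph1 was lower (-1.20) and Cct5 higher (0.84). The other Hsph1 probe set, not called, gave -0.11. Of 16 immediate-early genes Btg2 (1.09) and Jun (0.96) were among 4 higher ones and Junb among 2 lower ones. Of 21 noncoding RNAs, 7 were higher and 3 lower. Snhg12, a host of small nucleolar RNAs, stood at 11.34, 10.78 and 10.77 in EB, against 10.05, 9.86 and 9.84 in ESC. Neat1 (-0.90), Snhg8 (-0.87) and Tug1 (-0.52) were lower. The other Neat1 probe set, not called, gave 0.01, and another probe set of Tug1 was called higher (0.45). Of 5 replication-dependent histone genes, H2aw was lower (-0.73), and of 12 fibroblast and matrix genes, Ccn2 and Ccn1 were higher and Vim lower. Of 8 iron-related mRNAs, Slc40a1 (1.30), the iron exporter, and Alas1 (0.53) were higher. Calls fell with quantile normalisation over 24 pool arrays or an offset of 8. Under either setting the 8 higher mitosis genes became 0 and the 4 higher replication genes 1. The 4 higher chaperone genes became 0 and the 7 higher noncoding RNAs 1. Lower calls also fell in these 4 lists. On the deposited scale the 8 higher mitosis genes became 3.

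**Figure D4:**
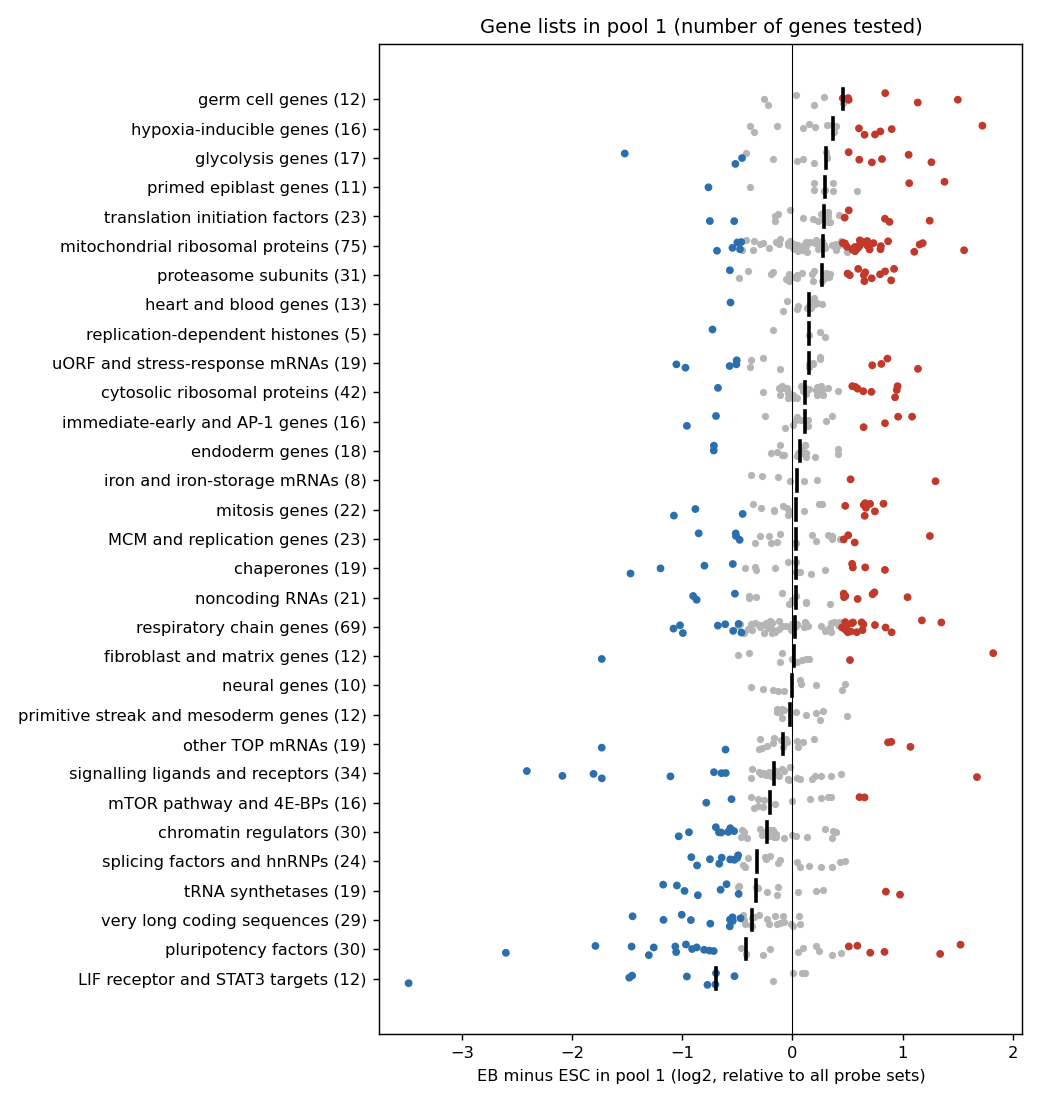
EB minus ESC difference in pool 1 (log2) for each tested member of the gene lists, ordered by the list's median (black bar), with the number of genes tested in parentheses. Red members were called higher in EB, blue ones lower and grey ones neither; germ cell genes have the highest median, 0.46, and LIF receptor and STAT3 targets the lowest, -0.70.

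The differences of pool 1 were set beside those of total RNA and of the other pools, matched by replicate number. Across the 13236 genes, the pool 1 difference correlated with that of pool 2 at r = 0.646, of pool 3 at 0.524, of pool 4 at 0.328 and of total RNA at 0.402, as a description over genes that share arrays and are not independent. The 1009 genes higher in pool 1 had a median difference of 0.65 there, 0.53 in pool 2, 0.34 in pool 3, 0.11 in pool 4 and 0.25 in total RNA. The 1190 lower genes had medians of -0.66 in pools 1 and 2, -0.45 in pool 3, -0.30 in pool 4 and -0.26 in total RNA. Since the genes were chosen by their pool 1 values, a smaller value elsewhere is not a result. The lowest genes were low in all fractions: Socs3 had differences of -3.49 in pool 1, -4.78, -3.63 and -3.60 in pools 2 to 4 and -4.0 in total RNA.

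No gene passed the test that its EB minus ESC difference in pool 1 differed from the mean of pools 2 to 4 (0 of 27022 probe sets by limma, 4115 at an unadjusted p under 0.05) or from total RNA (0 of 27022, 4628 unadjusted). These counts depend on the settings: against the other pools, 174 probe sets had a larger and 13 a smaller difference in pool 1 without the replicate block, 186 and 6 with a variance trend, and 1281 and 969 with an offset 4 times as large. Against total RNA they were 13 and 0, 26 and 0, and 1319 and 1218 under the same settings. With pool 4 as the only pool compared, 791 probe sets had a larger difference in pool 1 (2.93%) and 440 a smaller one (1.63%); with pool 2 or pool 3 alone, none was called. Counted by gene, 442 were called with a larger difference in pool 1 than in pool 4 (3.34%) and 210 with a smaller one (1.59%). Respiratory chain genes made up 39 of the larger ones, of 69 tested, and mitochondrial ribosomal proteins 24, of 75 tested, with no call in the other direction in either list. In pool 4 respiratory chain genes were lower in EB, with a median of -0.89 and 46 of 69 called lower, where 8.28% of all genes were called higher and 10.2% lower, against the median of 0.03 in pool 1. Mitochondrial ribosomal protein genes had a median of -0.44 in pool 4, with 35 called lower, and of 0.27 in pool 1. Of noncoding RNAs 8 of 21 were called larger in pool 1 than in pool 4, with a median of 0.03 in pool 1 and of -0.83 in pool 4, and of replication-dependent histones 2 of 5, with medians of 0.15 and -0.80. Of mitosis genes 4 of 22 had a smaller difference in pool 1, with medians of 0.67 in pool 4 and 0.03 in pool 1. The pool 1 medians of mitosis genes and noncoding RNAs changed sign with median centring, to -0.10 and -0.05. Under that setting the median of all genes was -0.10. The Gapdh 3′ minus 5′ difference in pool 4 was -0.08, -0.15 and -0.15 in EB, against 0.83, 1.06 and 2.0 in ESC. On pool 4 arrays 36.1%, 28.0% and 29.6% of probe sets lay at the floor in EB, against 59.1%, 49.7% and 57.0% in ESC. The part of either in these gaps was not tested. For pool 4 alone, neither the other settings nor leaving out replicates was run.

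Among the leading genes, 3 had differences of at most 0.13 in pools 3 and 4. Use1, a SNARE of the endoplasmic reticulum, differed by 1.57 in pool 1, at 9.64, 9.75 and 9.76 in EB, against 7.80, 8.19 and 8.44 in ESC, and by 0.78, 0.11 and -0.70 in pools 2 to 4 and -0.05 in total RNA. Mrpl23 differed by 1.56 in pool 1, by 0.91, 0.13 and -0.32 in pools 2 to 4 and by -0.04 in total RNA. Cdk12 differed by 1.82 in pool 1, by 0.85, 0.02 and 0.08 in pools 2 to 4 and by 1.00 in total RNA. Against pool 4 alone all 3 were called by limma. Their excesses in pool 1 were 2.28 for Use1 (adjusted p = 0.00733), 1.89 for Mrpl23 (adjusted p = 0.00836) and 2.27 for Cdk12 (adjusted p = 0.00733). These 3 genes were picked by their values in pools 1, 3 and 4, so an excess over pool 4 was built into the choice. Against the mean of the other pools they missed the threshold (adjusted p = 0.0734, 0.0734 and 0.0682), as they did against total RNA (0.143, 0.143 and 0.147). Dazl had the opposite pattern, 1.14 in pool 1 and 2.52 in pool 4 (adjusted p of the difference 0.0241), and Kif11 differed by -1.08 in pool 1 and 0.12 in pool 4 (adjusted p of the difference 0.0312).

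**Figure D5:**
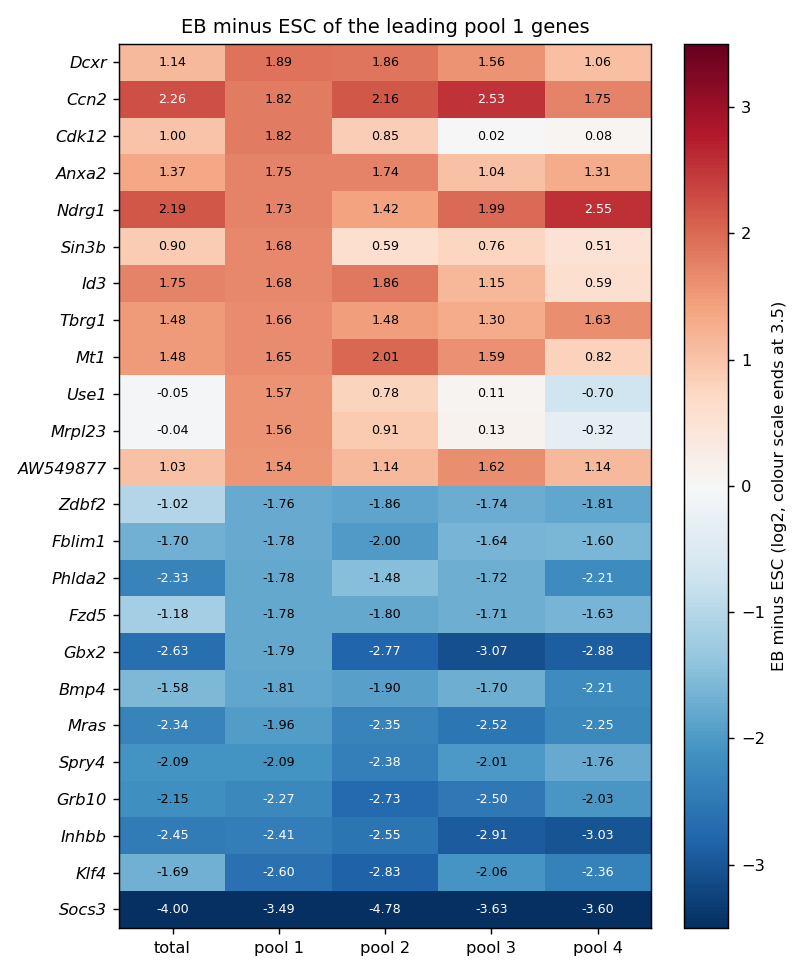
EB minus ESC difference (log2, printed and coloured, red higher and blue lower in EB) of the 24 leading pool 1 genes in total RNA and in pools 1 to 4, each normalised among its own 6 arrays. The 12 lowest genes are blue in every column, while Use1, Mrpl23 and Cdk12 are near 0 or below in pool 4.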

How the data were processed

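The deposited values are log2 signals for 45037 probe sets and 64 controls. MAS5 and affy are named per the submitters' processing notes, without versions or settings. Signals lie on a scale set by spike-in RNA (24 control probe sets), and pool arrays have a floor shared by arrays of a replicate number, as read from the deposited values. No depth exists for arrays, and the 3 arrays per state limit the precision.

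Levels are log2 of the linear signal plus 32. Arrays were quantile-normalised over the 6 pool 1 arrays, or left as deposited. Probe sets under the 40th percentile of mean level were left out. EB minus ESC was fitted with limma 3.58.1 in R 4.3.3 (lmFit, eBayes, two-sided, Benjamini-Hochberg over 27022 probe sets, threshold 0.05), with the replicate number as a block. For other pools (quantile over 24 arrays) and total RNA (over 12), the fit used differences from the pool 1 array of the same state and replicate number. The script was tested on simulated data. Deviations of same-numbered arrays from their group means correlated at 0.53, 0.27 and 0.36 on the deposited scale and at 0.02, 0.04 and 0.06 after quantile normalisation; the labels give the shared numbers as biological replicates.

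Each gene was represented by its probe set with the highest mean; 34945 probe sets had 1 symbol, 932 several and 9160 none, and 34741 matched the gene reference (GRCm38.p6), with no symbol replaced. Named genes are the 12 highest and 12 lowest called genes without overlap, up to 4 at the floor in 1 state, and up to 3 called members per list or, where none was called, up to 2 with the largest difference, given as values; further list members were named after their values were seen. The members and lists were chosen with earlier results of these data known. The naming rule gave 104 genes, of which 60 had several tested probe sets. Not every disagreement among those probe sets is stated in the text. Alternatives were no block, another offset, filter or scaling, a variance trend and leaving out each replicate. Differences by protein length were not analysed here.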

Additional observations from a re-analysis of the deposited data

How the results depend on the processing

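Counts are probe sets higher and lower in EB. Relative to all RNA, 2002 and 1918 became 1865 and 1795 without the replicate block, 817 and 664 with an offset of 8, 1129 and 2035 with median centring, 663 and 488 with quantile normalisation over 24 pool arrays, and 0 and 0 with no filter (5941 at an unadjusted p under 0.05); leaving out a replicate gave 0 to 1448 higher and 0 to 1342 lower. On the deposited scale, 1150 and 700 became 0 and 0 without the block or filter, 883 and 316 with an offset of 8, 48 and 3 with an offset 4 times as large, 318 and 98 with probe sets above the floor on at least 3 arrays, 652 and 329 with a variance trend, 0 and 6 after scaling on hybridisation controls, which moved the median of all probe sets from 0.06 to 0.12, and 1129 and 2035 with median centring; leaving out a replicate gave 0 to 164 and 0 to 170. Against the other pools, 0 and 0 became 174 and 13 without the block, 1281 and 969 with an offset 4 times as large, 186 and 6 with a trend and 791 and 440 with pool 4 alone; leaving out a replicate gave 0 to 115 and 0 to 10, the highest without replicate 3. Against total RNA, 0 and 0 became 13 and 0 without the block, 1319 and 1218 with an offset 4 times as large and 26 and 0 with a trend; leaving out a replicate gave 0 to 91 and 0 to 23, the highest without replicate 3 and 22 and 6 without replicate 2. The cause was not tested. Leaving out a replicate pair leaves 1 residual degree of freedom per probe set. Of 1022 values of named genes under the other settings, 862 kept direction and side of the threshold, 157 lost the call, 3 gained one and 0 changed sign; of 312 with a replicate left out, 108 kept direction and side, 203 lost the call, 1 gained one and 0 changed sign. On the deposited scale median centring, and on the relative scale leaving out probe sets with the suffixes _x_at and _s_at, were chosen after seeing the data. Signals at the floor limit what can be measured: 14411 of the 27022 probe sets were above it on all 6 arrays.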

Other observations

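Different probe sets of 1 gene could move in opposite directions. Of 5650 genes with several tested probe sets, 456 had at least 2 called one way, and 44 called genes had a probe set called the other way. In 36 of the 44 the brightest probe set was lower in EB and in 8 it was higher. The genes named here were chosen after their values were seen. Nasp, a histone chaperone gene, had 1 probe set at 8.36, 8.09 and 8.58 in EB, against 9.04, 8.92 and 9.48 in ESC, a difference of -0.81, and a pair of others higher by 1.66 and 1.70. Rbm39, a splicing factor gene, had 2 probe sets lower (-0.65 and -0.46) and 5 higher, by 0.85 to 1.82. Malat1, a nuclear noncoding RNA, had 1 lower (-0.89) and 6 higher, by 0.57 to 1.51. Jmjd1c, a demethylase-family gene, had 1 lower (-1.62) and 1 higher (0.67). The files do not say which transcript part each probe set covers.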
